A study of Mus musculus with 4 samples.

Results

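Cells copying their DNA were picked out of sorted mouse progenitors by the transcripts they held. A cell counted as an S phase cell when its unique molecular identifiers (UMIs, 1 for each captured transcript) summed to 10 or more over Rrm2, Tyms, Tk1, Lig1, Tcf19, Mybl2 and Hist1h1b, here called the S sum. It also had to hold under 3 UMIs over Ube2c, Ccnb1, Cdc20, Cenpa, Cenpf, Hmmr and Nusap1, here called the G2/M sum. The cells were thus chosen by measured UMIs of these 14 genes. The rule found 369 of 8883 cells (4.15%, exact binomial 95% interval 3.75 to 4.59, counting error only).

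They came from LMPPs (lymphoid-primed multipotent progenitors), which can still form lymphoid and some myeloid cells. These had been FACS-sorted out of C57BL/6 bone marrow and captured in 10x Genomics droplets. RBPJ is the factor that carries Notch signals to DNA, at target genes such as Hes1. There was 1 library from each of 4 groups: control mice, which kept RBPJ throughout, RBPJ uninduced mice, which lacked it, and mice that at first lacked RBPJ and in which doxycycline had switched it on for 3 or for 6 days. The drug was first given as an intraperitoneal injection (2 mg/ml), followed by drinking water with 1 mg/ml. That text stands beside every library, so whether control and uninduced mice also received it is not known, and neither are the number of mice behind a library, their age or the promoter that drove RBPJ. With 1 library in each group, no comparison between groups could be tested, and the intervals below cover counting error only.

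S phase is the stretch of the cell cycle in which the genome is duplicated. Origins of replication are licensed by loading the MCM helicase before it starts, cyclin E with CDK2 and the E2F transcription factors drive entry, and deoxynucleotides and histones are then made in bulk. Mitotic genes such as the cyclin B genes are mostly switched on later, in G2. Progenitors of the blood divide often, whereas the most primitive stem cells seldom do.

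E2F proteins bind short motifs near the start of many replication genes, and the sites below are shown because they stand at genes that were higher in S phase cells. Promoters of 300 bases, from 250 before to 50 after each start, were searched on both strands for TTTCCCGC and TTTGGCGC, neither of which contains the other. The sequences are from RefSeq (GRCm38.p6), are written 5′ to 3′ along the gene, and have the motif in capitals.
Cdc6 (licensing factor, chr11:98908002-98908031, + strand): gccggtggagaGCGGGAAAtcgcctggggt
Mcm5 (helicase subunit, chr8:75109349-75109378, + strand): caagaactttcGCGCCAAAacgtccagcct
Cdt1 (licensing factor, chr8:122568035-122568064, + strand): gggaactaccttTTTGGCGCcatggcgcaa
E2f7 (E2F repressor, chr10:110745230-110745259, + strand): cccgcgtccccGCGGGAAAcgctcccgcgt
Hells (chromatin remodeller, chr19:38930917-38930946, + strand): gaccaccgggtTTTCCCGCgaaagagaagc
Cenpm (centromere protein, chr15:82244389-82244418, - strand): tcgaacgtggcTTTCCCGCgtttcgaggag
Dtl (adaptor that directs Cdt1 to destruction, chr1:191575534-191575563, - strand): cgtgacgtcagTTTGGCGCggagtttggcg
Zfp367 (zinc finger protein, chr13:64153186-64153215, - strand): cgaaatgtaacGCGGGAAAagccgaagcgg
The motif began 138 bases before the start in Cdc6, 149 in Mcm5, 198 in E2f7, 62 in Hells and 71 in Cenpm, 8 in Dtl and 5 in Zfp367, and at base 32 after it in Cdt1. Either motif stood in a promoter of 486 of 27025 genes in the table (1.80%) and of 244 of the 5658 genes with a promoter that were measured here (4.31%). A match is a description of these letters and shows no binding.

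Depth set part of what the rule could find. The kept cells held 10647894 to 23504158 UMIs a library with a median of 6774 to 7920 a cell, and 2 to 17 barcodes were shared by any 2 libraries. The S phase cells had median UMIs of 11357 in control, 10638.5 in uninduced, 11213 at 3 days and 10741 at 6 days, against 7604.5, 6618, 7478 and 7140.5 in the other cells. Together they held 1604876, 1225103, 555686 and 793207 UMIs in that order, so that 10 CPM (UMIs per 1000000 of the class) is 16, 12.3, 5.56 and 7.93 UMIs.

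The threshold runs through a continuous range. With a G2/M sum under 3, 107 cells had an S sum of 9, 82 had 10, 67 had 11 and 61 had 12. The median S sum of the chosen cells was 12 and the highest 28, and 210 of the 369 lay at 10 to 12, so the class is a range cut from a score. Of 923 cells with an S sum of 10 or more, 60.02% were left out for a G2/M sum of 3 or more, 60.9% in control, 56.1% in uninduced, 60.2% at 3 days and 63.6% at 6 days. The chosen cells held a G2/M sum of 0 in 97 cells, 1 in 139 and 2 in 133, and 98 further cells were left out at exactly 3.

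The 5 markers of the label, Rrm2, Tyms, Tk1, Lig1 and Hist1h1b, all belong to the rule, so their levels describe it. Rrm2, the small subunit of ribonucleotide reductase (chr12:24708241-24714146, + strand, GENCODE vM21), stood at 238 CPM in control, 246 in uninduced, 295 at 3 days and 229 at 6 days, against 54.4 to 63.3 in other cells. Tyms, thymidylate synthase, stood at 203 to 284 against 60.1 to 71.4, and Lig1, the ligase that joins Okazaki fragments, at 221 to 347 against 85.5 to 98.5. Hist1h1b, a replication-dependent linker histone, differed least of the 7, with 64.2 to 99.0 CPM against 31.1 to 38.0. The 7 mitotic genes of the rule were low by construction, as Ube2c shows with 11.4 to 20.2 CPM against 209 to 258.

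The cells carried the progenitor genes of the sort. Flt3, the cytokine receptor that defines LMPPs, was at 175 CPM in control, 158 in uninduced, 175 at 3 days and 171 at 6 days in S phase cells, and at 193 to 226 in the others. Cd34 was at 383 to 411 CPM, and Dntt, the terminal transferase of lymphoid priming, at 573 to 716. The summed level of 20 stem cell genes was 543 to 698 CPM against 731 to 891 in other cells, with Tek and Hoxb5 at 0. Markers of other cell types were also summed. The 16 neutrophil and monocyte genes ranged from 154 to 4377 CPM against 1174 to 4655 (Mmp9 and Ly6g at 0), and the 15 erythroid genes from 207 to 230 against 328 to 943 (7 at 0, among them Gata1 and Epor). The 11 B lineage genes summed to 32.4 to 46.5 CPM against 51.9 to 88.3, with Pax5 and Cd79a among 6 at 0, and the 12 T lineage genes to 103 to 152 against 130 to 142, with Cd3g, Cd3d, Cd3e and Bcl11b at 0. Cells with 20 or more UMIs of mature or other-type marker genes numbered 8 of the 369 (2.17%), and 24 (6.50%) held over 2 times the median UMIs of their library, the size a pair of cells in 1 droplet could have.

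S phase cells were then set against all other kept cells of the same library. Because the rule used these very cells, the contrast is a description and carries no test. A ratio is log2 of (CPM + 1) in S phase cells over other cells, given as mean ± SD of the 4 libraries, and a gene is counted as higher or lower when it differed at least 1.5-fold the same way in all 4 libraries with a mean of 10 CPM or more in either class. Of 7270 measured genes outside the rule, 161 were higher (2.21%) and 103 lower (1.42%), and the median ratio was -0.01. Among the 401 of them that belong to cell cycle lists or patterns, 80 were higher (20%) and 24 lower (5.99%). Scaling by edgeR's TMM factors moved the split to 128 higher and 125 lower. Depth was set equal by thinning every cell with 4700 or more UMIs to that number, with the S phase cells kept as chosen. That left 153 higher and 102 lower ("thinned" below). Shallower cells were dropped (351 in control, 676 in uninduced, 204 at 3 days and 374 at 6 days), none of them S phase cells. The comparison cells thus changed as well as the depth. A second comparison kept cells between the 25th and 75th percentile of the S phase cells' UMIs (8916.5 to 13045 UMIs over the libraries, 25 to 69 S phase cells against 156 to 520 others), called cells of like size, and had 54 higher and 96 lower. It also changed the mix of comparison cells: cells with an S sum of 0 to 2 and a G2/M sum under 3 were 12.3% of the others of like size and 57.6% of all others, while those with a high G2/M sum, alone or with a high S sum, went from 22.2% to 48.4% and from 6.51% to 13.9%.

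Regulators of S phase entry were higher in S phase cells. Ccne2, cyclin E2 (chr4:11191351-11204779, + strand), was at 91.0 CPM in control, 73.5 in uninduced, 84.6 at 3 days and 71.9 at 6 days, against 20.3, 17.0, 14.6 and 18.5 in other cells, a ratio of 2.13 ± 0.24 (SD, n = 4 libraries). As a counted gene it had to be higher in all 4 libraries, so the shared direction adds no support. Ccne1, cyclin E1, was at 31.8, 28.6, 27.0 and 17.6 CPM against 6.13 to 7.03, a ratio of 1.85 ± 0.33. Ccne1 met the minimum of 10 CPM only through the S phase cells. E2f1, an activating E2F factor, was at 74.4 to 104 CPM against 30.4 to 38.2 (1.35 ± 0.17). The repressive E2F genes E2f7 (1.16 ± 0.14) and E2f8 (1.12 ± 0.14) were higher too. In all, 6 of the 16 measured genes of the E2F, cyclin and CDK2 list were higher and 0 lower, with a median ratio of 0.69, which was 0.74 thinned and 0.27 in cells of like size. For Ccne2 these were 2.13 and 1.58.

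Origin licensing genes were higher as a group, with 13 of 22 counted as higher, 0 as lower and a median of 0.89 (0.91 thinned, 0.58 in cells of like size). Cdc6, which loads the MCM helicase on origins, was at 43.0 CPM in control, 31.0 in uninduced, 46.8 at 3 days and 37.8 at 6 days against 11.6 to 13.5 in the other cells, a ratio of 1.60 ± 0.22. Mcm5, a subunit of that helicase, was at 131 to 164 CPM against 66.7 to 74.7 (1.08 ± 0.15). Gmnn, which blocks a second round of licensing, was at 188 to 209 against 83.4 to 91.1 (1.15 ± 0.08), and its partner Cdt1 had a ratio of 1.14 ± 0.16. For each of these genes all 4 libraries lay on the same side, which counting a gene as higher requires.

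The enzymes of the replication fork and of the deoxynucleotide supply followed. Of 31 fork genes 19 were higher and 0 lower (median 0.94, 0.99 thinned, 0.53 in cells of like size). Pcna, the sliding clamp that holds polymerases on DNA, was at 272 CPM in control, 238 in uninduced, 333 at 3 days and 267 at 6 days against 115 to 125 in the other cells, a ratio of 1.20 ± 0.19. Asf1b, a histone chaperone, had a ratio of 1.53 ± 0.22, Dscc1, part of a clamp loader, 1.46 ± 0.11, and Clspn, which signals stalled forks, 1.32 ± 0.34. Of 8 deoxynucleotide genes outside the rule 5 were higher and 0 lower (median 0.76, 0.89 thinned, 0.53 in cells of like size). Dut, which removes dUTP, was at 611 to 646 CPM against 338 to 358 (0.86 ± 0.02).

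DNA repair and chromatin copying genes were also among the higher ones. Of 15 repair genes 10 were higher and 0 lower (median 0.98, 1.12 thinned, 0.54 in cells of like size), among them Brca1 (1.48 ± 0.15), which acts in homologous recombination, and Ung (1.32 ± 0.27), which cuts uracil out of DNA. Of 12 genes for DNA methylation and chromatin maintenance 4 were higher and 0 lower (median 0.46, 0.62 thinned, 0.06 in cells of like size). Uhrf1, which guides DNA methylation to newly copied strands, was at 134 to 148 CPM against 48.2 to 51.5 (1.48 ± 0.08), Hells had a ratio of 1.25 ± 0.09 and the maintenance methyltransferase Dnmt1 of 0.80 ± 0.10. Of 9 cohesion genes only the acetyltransferase gene Esco2 was counted as higher (0.99 ± 0.15, 1.32 thinned, 0.17 in cells of like size).

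**Figure D1:**
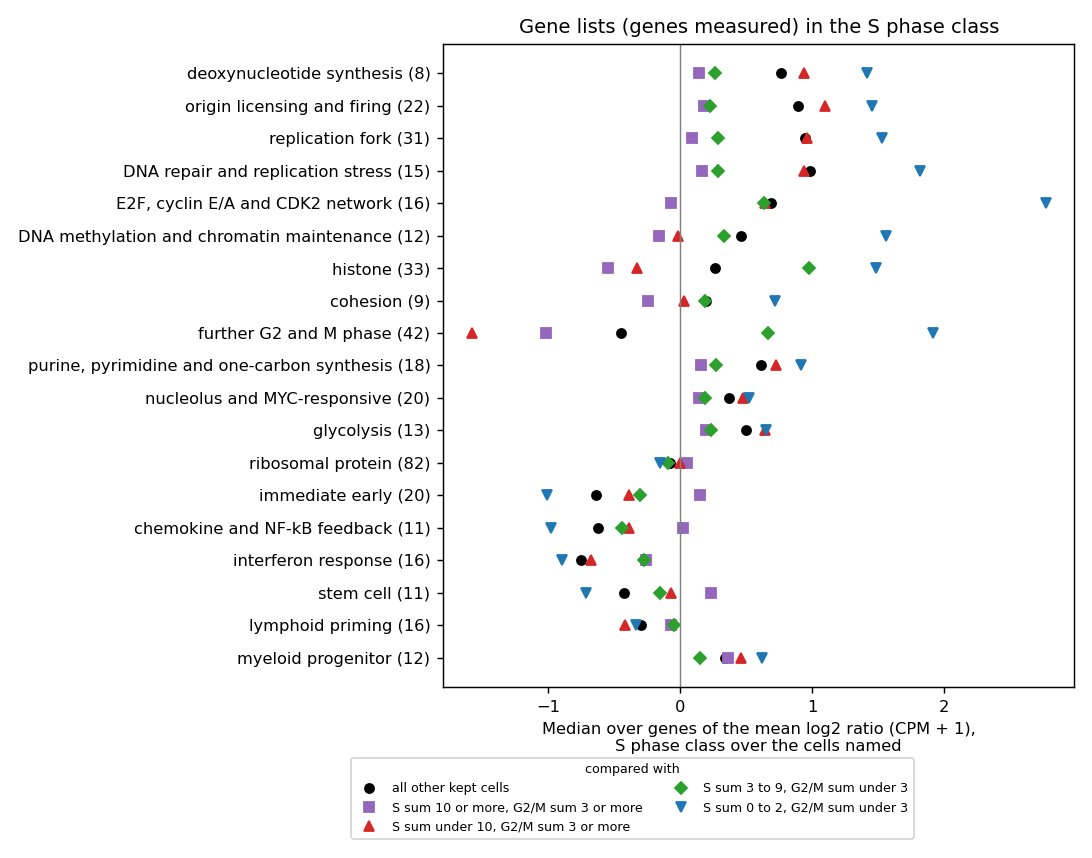
Median log2 ratio (CPM + 1) over the measured genes of each list, for S phase cells against all other kept cells (black circles) and against each class of other cells, with the number of measured genes in parentheses. The deoxynucleotide, licensing and fork lists lie between 0.76 and 0.94 against all other cells and between 0.09 and 0.29 against the classes with an S sum of 3 to 9 or of 10 or more with G2/M transcripts, whereas the further G2 and M phase list lies at -1.01 and -1.58 against the classes with G2/M transcripts.

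The other cells were split by the same sums to place the S phase cells among them. Cells with both an S sum of 10 or more and a G2/M sum of 3 or more numbered 554 (6.24%, median 12877 UMIs), those with a G2/M sum of 3 or more alone 1889 (21.3%, 11240), those with an S sum of 3 to 9 and a G2/M sum under 3 numbered 1168 (13.1%, 8986.5), and those with an S sum of 0 to 2 and a G2/M sum under 3 numbered 4903 (55.2%, 5561). Ccne2 was at a mean of 80.2 CPM in the S phase cells, 43.8 in cells with both sums high, 43.6 at an S sum of 3 to 9, 9.89 in cells with a high G2/M sum alone and 7.11 at an S sum of 0 to 2. Cdc6 was also highest in the S phase cells, at 39.7 CPM against 24.1, 29.98, 6.95 and 7.01 in the same order. Cyclin A2, Ccna2, which takes over from cyclin E as replication proceeds, had another order, with 84.5 CPM in S phase cells, 140 in cells with both sums high, 187 in cells with a high G2/M sum alone, 32.1 at an S sum of 3 to 9 and 2.06 at 0 to 2. The topoisomerase gene Top2a (296, 521, 518, 171 and 26.9 CPM) and Mki67, a proliferation marker (67.3, 151, 180, 32.9 and 3.19), were likewise below the classes with G2/M transcripts. Against cells with both sums high, the S phase cells' list medians were 0.18 for licensing, 0.09 for the fork, 0.14 for deoxynucleotide synthesis and -0.07 for the E2F list.

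Mitotic genes outside the rule were low in the S phase cells. Of 42 further G2 and M phase genes 0 were higher and 12 lower, with a median of -0.45 against all other cells. Ccnb2, cyclin B2, was at 16.8 CPM in control, 23.7 in uninduced, 8.998 at 3 days and 16.4 at 6 days against 88.1 to 109, a ratio of -2.61 ± 0.66. The mitotic kinase genes Aurka (-1.81 ± 0.54) and Plk1 (-1.78 ± 0.54), the phosphatase gene Cdc25c (-1.95 ± 0.58) and the kinetochore motor gene Cenpe (-1.65 ± 0.41) were lower as well. The comparison cells set this direction: against other cells with a G2/M sum under 3, Ccnb2 was at 0.80, Aurka at 0.83, Plk1 at 1.67, Cdc25c at 1.35 and Cenpe at 0.82.

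Histone genes were mixed, with 1 of 33 measured higher, 3 lower and a median of 0.26 (0.42 thinned, -0.35 in cells of like size). The replication-dependent Hist1h2ap was at a mean of 69.8 CPM in S phase cells, 138 in cells with both sums high, 87.8 in cells with a high G2/M sum alone, 26.1 at an S sum of 3 to 9 and 5.02 at 0 to 2. The linker histone gene Hist1h1e had the same order, 43.4, 103, 69.4, 18.2 and 14.7 CPM. The lower genes were H1f0 (-1.70 ± 0.76), a linker histone of resting cells, Hist1h2bc (-1.61 ± 0.53) and Hist3h2a (-1.11 ± 0.42), and the higher one was the macroH2A gene H2afy2 (1.08 ± 0.21). Hist1h2bc stood at 22.6 CPM in S phase cells, and at 95.03 and 76.1 CPM in cells with a high G2/M sum alone and in cells with an S sum of 0 to 2. Histone genes have near-identical copies and most replication-dependent ones lack a poly(A) tail, so their counts are uncertain.

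**Figure D2:**
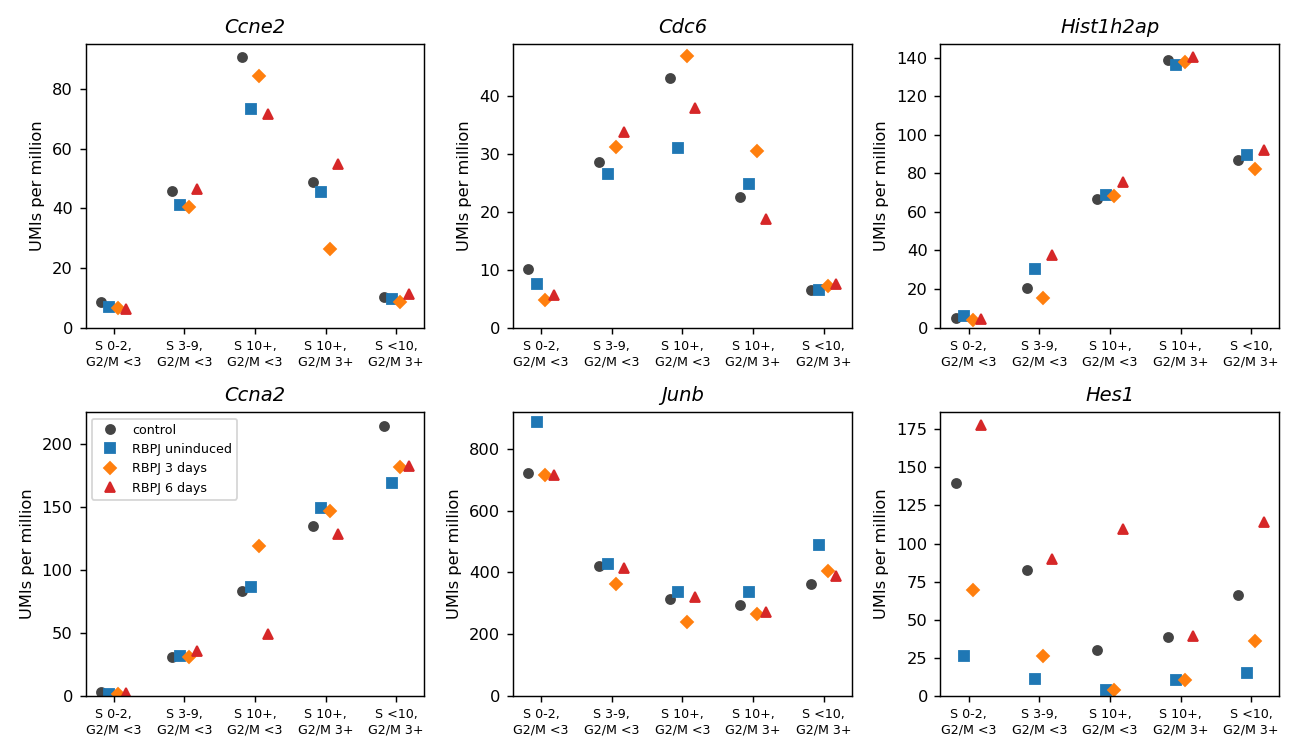
CPM of 6 genes in the 5 classes of kept cells, ordered by their S and G2/M sums, with 1 point for each library. Ccne2 and Cdc6 peak in the S phase class (S 10+, G2/M <3) in every library, Hist1h2ap in the class with both sums high and Ccna2 in the class with a high G2/M sum alone, and Junb is highest at an S sum of 0 to 2.

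The class was also split within itself. S phase cells with a G2/M sum of 0 (11 to 35 a library) were set beside those with a sum of 1 or 2 (38 to 102). Hist1h2ap was at 39.3 against 75.2 CPM in control, 29.3 against 83.8 in uninduced, 66.3 against 69.0 at 3 days and 22.5 against 96.3 at 6 days. It was lower at a G2/M sum of 0 in all 4 libraries, though hardly so at 3 days. Ccne2 went the other way, with 107 against 85.8 CPM in control, 84.8 against 69.1 in uninduced, 91.2 against 82.8 at 3 days and 80.9 against 68.3 at 6 days. Split by the S sum, cells at 13 or more held more Ccne2 than those at 10 to 12 in all 4 libraries (100, 90.7, 103 and 98.4 CPM against 82.5, 62.6, 64.4 and 45.3). Cells at 13 or more also had higher median UMIs, 11002 to 12450 against 9752 to 11035. At a G2/M sum of 0 the class held 120671 UMIs at 3 days and 222363 at 6 days. Such values rest on few UMIs, and no intervals were computed, so counting error was not assessed for these splits.

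Genes outside the cell cycle differed far less often. Of 6869 measured, 81 were higher (1.18%) and 79 lower (1.15%), and 88.8% lay within 1.5-fold on the mean ratio. A ratio above 0 in all 4 libraries was found for 1604 of them (23.4%), and below 0 for 1590 (23.1%). With TMM factors 58 were higher and 99 lower, thinned 68 were higher and 88 lower, of which 40 and 46 were among the 81 and 79, and in cells of like size 40 were higher and 56 lower, of which 19 and 21 were. Some of the genes counted here act in DNA replication or mitosis and were missed by the lists, such as Dtl and Aunip among the higher genes, and Fzr1 and Gas2l3 among the lower ones.

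Lists of metabolic and growth genes held 9 of the 81 higher genes. Shmt1, which makes one-carbon units for thymidylate, was at 54.2 CPM in control, 55.5 in uninduced, 57.6 at 3 days and 40.3 at 6 days against 17.9 to 21.6, a ratio of 1.33 ± 0.14 that was 1.42 thinned and 1.15 in cells of like size. Of 18 genes of purine, pyrimidine and one-carbon synthesis 5 were higher and 0 lower (median 0.61, 0.68 thinned, 0.49 in cells of like size). Mthfd2, a mitochondrial folate enzyme, was at 44.1 to 73.8 CPM against 25.3 to 28.8 (1.13 ± 0.24), Ppat, the first enzyme of purine synthesis, had a ratio of 0.91 ± 0.24 and Mthfd1l of 0.90 ± 0.11. Of 20 nucleolar and MYC-responsive genes 2 were counted as higher and 0 as lower (median 0.37, 0.41 thinned, 0.36 in cells of like size). A ratio above 0 in all 4 libraries was held by 19 of them, against 23.4% of all measured non-cycle genes. The 2 counted as higher were Srm, spermidine synthase, at 211 to 260 CPM against 110 to 127 (0.92 ± 0.08), and the nucleolar protein gene Nolc1 (0.77 ± 0.13). Of 13 glycolysis genes 2 were higher and 0 lower (median 0.50, 0.51 thinned, 0.44 in cells of like size): Ldha, lactate dehydrogenase, at 553 to 819 CPM against 318 to 390 (0.92 ± 0.18), and Tpi1 (0.76 ± 0.12). The differences were smaller against the classes most like the S phase cells. Against both sums high and an S sum of 3 to 9, medians were 0.15 and 0.28 (purine list), 0.14 and 0.19 (nucleolar list) and 0.19 and 0.23 (glycolysis). Against a high G2/M sum alone they were 0.72, 0.48 and 0.65, and against an S sum of 0 to 2 they were 0.92, 0.52 and 0.65.

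The highest ratios among non-cycle genes went to a varied set. Nsg1, an endosomal protein gene best known from neurons, was at 11.2 CPM in control, 13.1 in uninduced, 10.8 at 3 days and 11.3 at 6 days against 2.08 to 2.97, a ratio of 1.88 ± 0.21 on 49 UMIs, which was 1.86 thinned and 1.59 in cells of like size. Nsg1 met the minimum of 10 CPM only through the S phase cells, where it was high, so its place among the highest ratios is partly set by that filter. Aunip, a partner of the Aurora A kinase, was at 45.4 to 52.2 CPM against 16.02 to 16.8 (1.47 ± 0.10). Sdf2l1, a protein of the endoplasmic reticulum, was at 102 to 147 against 39.0 to 56.6 (1.32 ± 0.21), Gatm, which starts creatine synthesis, at 49.2 to 62.9 against 20.2 to 22.3 (1.32 ± 0.10), and Nt5dc2 at 124 to 151 against 51.7 to 59.8 (1.30 ± 0.10). Nefh (1.44 ± 0.27), BC030867 (1.44 ± 0.43), Pask (1.35 ± 0.55) and Prkar2a (1.22 ± 0.33) were also among the 12 highest.

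**Figure D3:**
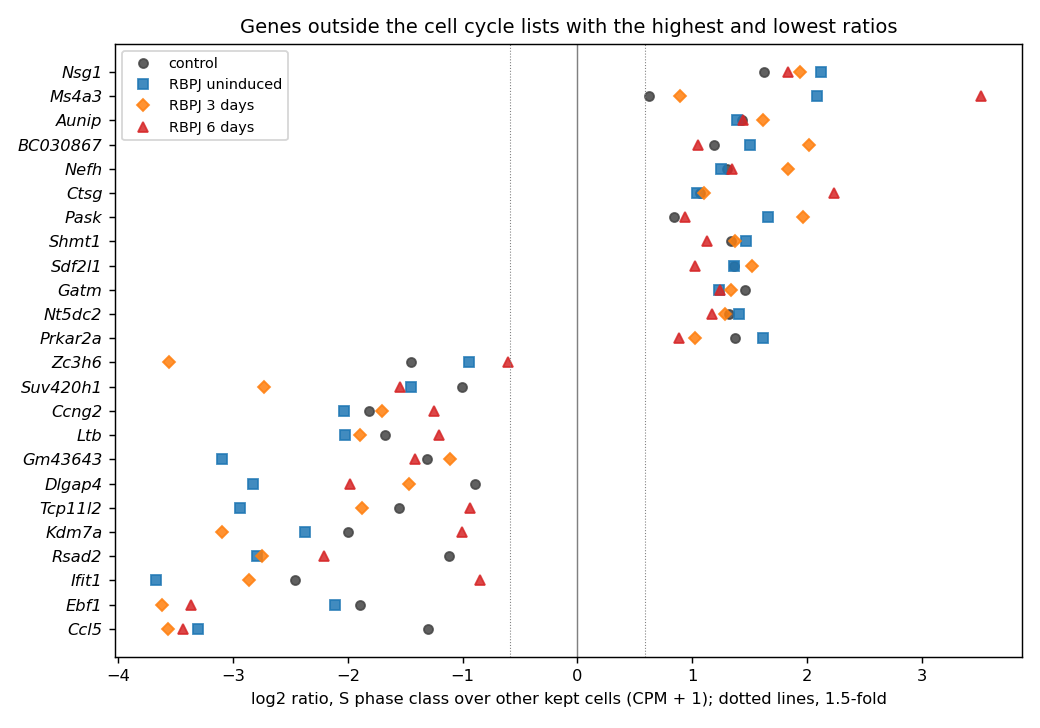
The 12 highest and 12 lowest non-cycle genes by mean log2 ratio (CPM + 1) of S phase cells to other cells, with 1 point for each library. Nsg1 and Shmt1 keep their 4 points close together, while Ms4a3 and Ctsg spread widely and several of the lowest genes rest on under 15 UMIs in S phase cells.

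Some myeloid genes were higher, with a part of their UMIs in few cells. Ctsg, cathepsin G, was at 82.9 CPM in control, 72.6 in uninduced, 97.2 at 3 days and 142 at 6 days against 29.5 to 44.7 (1.36 ± 0.58), and Mpo, myeloperoxidase, at 162, 151, 164 and 250 against 63.7 to 101 (1.07 ± 0.60). Ms4a3, a gene of granulocyte-monocyte progenitors, was at 1.25, 18.8, 12.6 and 29 CPM against 0.457 to 6.34 (1.78 ± 1.32). Ms4a3 met the minimum of 10 CPM only through the S phase cells. Thinned the ratios were 1.503 for Ctsg, 0.98 for Mpo and 1.69 for Ms4a3, in cells of like size 0.51, 0.27 and 0.12, and without cells of other types they were 0.90, 0.74 and 1.20. The 12 measured myeloid progenitor genes had a median of 0.34, which was 0.34 thinned, 0.06 in cells of like size and 0.01 without cells of other types. Mpo UMIs lay in 80, 56, 22 and 28 S phase cells in control, uninduced, 3 days and 6 days, and 1 cell at 6 days held 85 of 198, while Ms4a3 UMIs lay in 2, 6, 2 and 3 cells.

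Lists of activation and signalling genes held 9 of the 79 lower genes. Of 20 immediate early genes 0 were higher and 2 lower, and 19 had a ratio below 0 in all 4 libraries (median -0.64). Among all measured non-cycle genes 23.1% were below 0 in all 4. Junb, an AP-1 subunit, was at 313 CPM in control, 335 in uninduced, 238 at 3 days and 321 at 6 days against 504 to 640 in the other cells (-0.85 ± 0.21), and Ier3, an early response gene, at 70.2 to 146 against 155 to 261 (-1.02 ± 0.15). Of 11 chemokine and NF-kB feedback genes 0 were higher and 3 lower (median -0.62). Cxcl2, a chemokine that draws neutrophils, was at 10.6, 31.0, 46.8 and 51.7 CPM against 25.3, 73.1, 127 and 140 (-1.31 ± 0.13), and Ccl4, another chemokine, was at 169 to 333 against 354 to 553 (-0.88 ± 0.18). Of 16 interferon response genes 0 were higher and 4 lower (median -0.75), among them Isg15 at 19.3 to 23.4 CPM against 32.9 to 54.3 (-0.9996 ± 0.25). The interferon median rested on genes of low level, as it was -0.19 at a minimum of 50 CPM. Summed over the 24 genes of the list, the level was 1748 to 2061 CPM against 1948 to 2190 in other cells. Of the 16 measured, 2 were above 0 in all 4 libraries and 12 below. Thinned, the medians were -0.60 for the immediate early list, -0.67 for the chemokine list and -0.70 for the interferon list, with Junb at -0.85 and Ccl4 at -0.77. In cells of like size they were -0.26, -0.28 and -0.59, with Junb at -0.37 and Ccl4 at -0.16. Within the class, the immediate early genes summed to 3867, 5905, 5272 and 4653 CPM at an S sum of 10 to 12 and to 3107, 4102, 3741 and 3485 at 13 or more, so they were lower at the higher S sum in all 4 libraries.

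Activation genes were highest in the cells with the fewest cycle transcripts. Against cells with both sums high the immediate early median was 0.15, against cells with a high G2/M sum alone -0.39, against an S sum of 3 to 9 -0.30 and against 0 to 2 -1.01. Junb stood at means of 302, 292, 411, 406 and 759 CPM in S phase cells and in those classes in that order. The lowest values were thus shared by the S phase cells and the cells with both sums high.

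Antiproliferative genes and single lymphoid genes were also among the lower ones. Ccng2, cyclin G2, a gene of resting cells, was at 12.5 CPM in control, 8.16 in uninduced, 8.998 at 3 days and 15.1 at 6 days against 31.5 to 46.4 (-1.70 ± 0.33), and was at -1.75 thinned and -2.24 in cells of like size. Btg1, a brake on proliferation, was at 82.8 to 136 CPM against 200 to 283 (-1.10 ± 0.18). Ltb, lymphotoxin beta, was at 16.2 to 34.0 CPM against 63.0 to 92.8 (-1.70 ± 0.36, -1.74 thinned, -1.13 in cells of like size). Ebf1, the B lineage factor, was at 1.87, 1.63, 0 and 1.26 CPM against 9.68 to 22.4, on 6 UMIs in all S phase cells together (-2.75 ± 0.87). Only 2 B lineage genes were measured, and the other, Cd79b, had a ratio of -0.0025. Ccl5 (12 UMIs), Ifit1 (6 UMIs), Rsad2 (8 UMIs) and Kdm7a (9 UMIs) were likewise lower on few UMIs, and without cells of other types the ratio of Ccl5 went from -2.90 to -1.18. Like Ebf1, these genes met the minimum of 10 CPM only through the other cells.

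Identity lists of progenitors held few counted genes. The stem cell list had 0 of 11 higher and 0 lower at a median of -0.43 (-0.35 thinned, -0.12 in cells of like size), and 8 genes were below 0 in all 4 libraries, among them Mycn at 16.2 to 34.0 CPM against 28.6 to 42.3. The lymphoid priming list had 0 of 16 higher and 1 lower at a median of -0.30, progenitor surface receptors 0 of 11 either way at -0.19 and MHC class II genes 0 of 9 at -0.19. The ribosomal protein list had 0 of 82 either way at -0.07, of which 56 were below 0 in all 4 libraries, and nuclear oxidative phosphorylation genes had 1 higher and 1 lower of 90 at 0.20, of which 57 were above 0 in all 4. Of all measured non-cycle genes 23.4% were above 0 and 23.1% below 0 in all 4 libraries. The lists of heat shock (0 of 10, median -0.01), cholesterol synthesis (0 of 10, 0.22), ATF4 (0 of 12, 0.14), p53 (0 of 7, -0.18) and BCL2 family genes (0 of 8, 0.11) held no counted gene.

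The motifs shown above were set beside these groups. Either motif stood in a promoter of 17 of the 61 higher cycle genes that had one in the table (27.9%), among them Cdc6, Mcm5, Cdt1, E2f7, Hells and Cenpm, and in 0 of 19 lower cycle genes. It stood in 9 of 63 higher non-cycle genes (14.3%), which were Atl3, Dtl, Nfatc2ip, Nolc1, Pgp, Pmm1, Ppat, Ppil1 and Zfp367, and in 1 of 64 lower ones (1.56%), Tgif1. By list, 7 of 17 licensing genes (41.2%), 5 of 24 fork genes (20.8%) and 2 of 36 further G2 and M phase genes (5.56%) held it. None of the 6 S phase rule genes with a promoter in the table did in this window.

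The share of S phase cells with all UMIs was highest in control and lowest at 6 days. It was 5.09% in control (137 of 2693 cells, 95% interval 4.29 to 5.99), 4.04% in uninduced (112 of 2769, 3.34 to 4.85), 3.79% at 3 days (49 of 1292, 2.82 to 4.98) and 3.33% at 6 days (71 of 2129, 2.61 to 4.19). Only the 6 day interval lay wholly below that of control. Each cell was then thinned to 4700 UMIs, with 351, 676, 204 and 374 cells below that depth dropped and no S phase cell among them, and the rule was also lowered to an S sum of 4 or more with a G2/M sum under 2, a rule chosen after seeing the data. The shares were then 10.1% in control (8.89 to 11.4), 10.8% in uninduced (9.55 to 12.3), 9.83% at 3 days (8.13 to 11.8) and 8.89% at 6 days (7.60 to 10.3), and all 4 intervals overlapped. Thinning, the dropped cells and the lowered rule changed together, so the new order cannot be credited to depth alone. At 4700 UMIs the rule as given left 11, 5, 9 and 10 cells, or 0.470% (0.235 to 0.839), 0.239% (0.0776 to 0.557), 0.827% (0.379 to 1.56) and 0.570% (0.274 to 1.05), with 3 days highest and uninduced lowest and overlapping intervals. With 1 library a group, differences between mice could not be assessed.

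**Figure D4:**
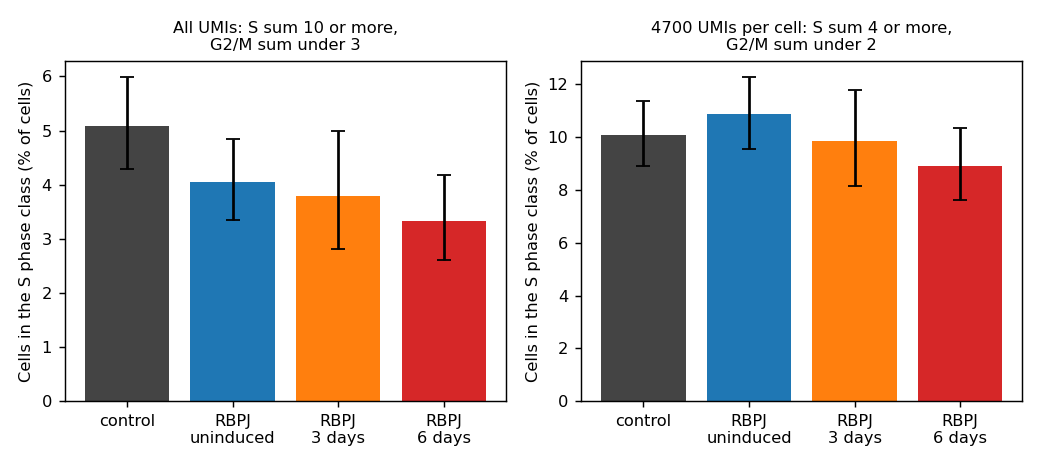
Share of kept cells in the S phase class in each library, with exact binomial 95% intervals that cover counting error only. With all UMIs (left) control is highest at 5.09%, and with 4700 UMIs a cell and the lowered rule (right) uninduced is highest at 10.8% and the intervals overlap.

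Rbpj, the gene that was removed and then switched on, was read as a check of the labels within S phase cells. Rbpj (chr5:53466152-53657362, + strand) was at 14.3 CPM in control (95% interval 9.08 to 21.5), 13.9 in uninduced (8.08 to 22.2), 581 at 3 days (520 to 648) and 401 at 6 days (358 to 447). Both induced libraries were far above the other pair, by 41.9-fold (25.8 to 72.8) at 3 days and 28.9-fold (17.8 to 50.2) at 6 days over uninduced, but uninduced was not below control (0.968-fold, 0.486 to 1.89). In other cells the levels were 18.0, 11.1, 504 and 489 CPM, with uninduced at 0.613-fold of control. Transcripts from the undeleted part of a gene can still be counted, and whether the loss of RBPJ removes the counted end is not known here, so the uninduced label could not be checked by this gene in S phase cells. Among the induced libraries the level varied with the class of cell. At 3 days it was 581 CPM in S phase cells, 555 with both sums high, 853 with a high G2/M sum alone, 490 at an S sum of 3 to 9 and 220 at 0 to 2, and at 6 days it was 401, 687, 861, 360 and 193.

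Hes1, a repressor that Notch induces through RBPJ (chr16:30064384-30067796, + strand), was highest at 6 days in S phase cells. It was at 29.9 CPM in control (48 UMIs, 22.1 to 39.7), 4.08 in uninduced (5 UMIs, 1.33 to 9.52), 3.599 at 3 days (2 UMIs, 0.436 to 13.001) and 110 at 6 days (87 UMIs, 87.9 to 135.3). Uninduced stood at 0.136-fold of control (0.0424 to 0.341), and 6 days stood at 26.9-fold of uninduced (11.1 to 84.8) and at 3.67-fold of control (2.55 to 5.33). At 3 days it was 0.882-fold of uninduced (0.0840 to 5.39), an interval too wide to show a direction. Other cells held 94.1, 18.9, 45.7 and 130 CPM, so that they were at 2.42-fold of uninduced at 3 days, 6.91-fold at 6 days, and 1.38-fold of control at 6 days. S phase cells held less Hes1 than the others in all 4 libraries, with ratios from -3.34 to -0.25 (-1.79 ± 1.27). Hes1 was highest at an S sum of 0 to 2 in every library, with 140, 26.3, 69.2 and 178 CPM. The S phase cells held the least Hes1 of the 5 classes in control, uninduced and 3 days, while at 6 days cells with both sums high held the least, 39.1 CPM.

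Other genes that differed between groups are given for S phase cells beside the rest of the cells. Hspa1a, an inducible chaperone, was at 14.3 CPM in control, 48.2 in uninduced, 331 at 3 days and 11.3 at 6 days in S phase cells, and at 10.6, 57.0, 454 and 19.3 in the others. The 3 day library stood 6.88-fold above uninduced (5.10 to 9.38). The mitochondrial gene mt-Atp8 stood at 0.425-fold of control in uninduced (0.356 to 0.506), and at 2.10-fold of uninduced at 6 days (1.72 to 2.57), and in other cells at 0.479-fold and 2.04-fold. Cxcl2 stood at 4.88-fold of control at 6 days (2.71 to 9.16), and at 5.54-fold in other cells. Siah2, a ubiquitin ligase gene, stood at 0.162-fold of uninduced at 3 days on 5 UMIs (0.0510 to 0.397), against 0.743-fold in other cells. The 3 comparisons with uninduced share that library, so they are not independent.

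**Figure D5:**
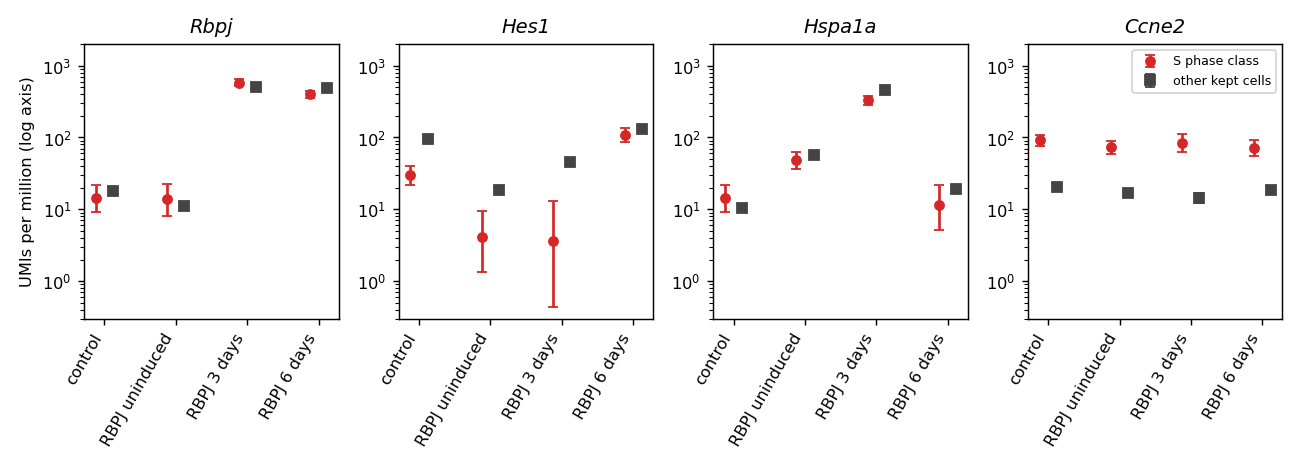
CPM on a log axis of Rbpj, Hes1, Hspa1a and Ccne2 in S phase cells (red circles) and other kept cells (grey squares) of each library, with exact Poisson 95% intervals that cover counting error only. Rbpj is high in both induced libraries and Hspa1a at 3 days. Hes1 in S phase cells is highest at 6 days, next in control and low in uninduced and at 3 days, while Ccne2 stays between 71.9 and 91.0 in S phase cells.

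The groups were compared gene by gene within S phase cells. Counting genes past 1.5-fold at 10 CPM or more in either library, 343 of 7263 (4.72%) were higher and 650 (8.95%) lower in uninduced than in control, 865 (11.8%) higher and 786 (10.7%) lower at 3 days than in uninduced, 743 (10.1%) and 687 (9.32%) at 6 days than in uninduced, and 494 (6.63%) and 781 (10.5%) at 6 days than in control. In other cells, with many more UMIs, the shares higher and lower were 0.677% and 0.76%, 0.452% and 0.862%, 0.719% and 0.339%, and 0.594% and 0.166% in that order. At 50 CPM or more the counts in S phase cells were 35 (1.34%) and 50 (1.91%), 115 (4.25%) and 75 (2.77%), 67 (2.57%) and 77 (2.96%), and 40 (1.54%) and 73 (2.80%). Of 23 licensing genes 2 were higher and 0 lower in uninduced than in control (median -0.02), 4 were higher and 4 lower at 3 days than in uninduced (median 0.04), and 2 were higher and 4 lower at 6 days than in control (median -0.18). Of 31 fork genes 0 were higher and 3 lower at 6 days than in control (median -0.11, -0.12 in other cells), and of 16 E2F genes 0 were higher and 4 lower (median -0.28, -0.15 in other cells). The medians of all genes in the 4 comparisons were -0.04, 0.04, -0.02 and -0.06.

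Activation genes were then compared between groups, in S phase cells and in the others. Of 20 immediate early genes 8 were higher and 1 lower in uninduced than in control (median 0.48, 0.58 in other cells), 0 higher and 7 lower at 3 days than in uninduced (-0.23, -0.23) and 0 higher and 5 lower at 6 days than in uninduced (-0.30, -0.43). Of 11 chemokine and NF-kB feedback genes 5 were higher and 0 lower in uninduced than in control (0.55, 0.62) and 7 higher and 0 lower at 6 days than in control (0.71, 0.62). At 3 days 5 of them were lower than in uninduced (-0.52), against -0.07 in other cells. Of 14 lymphoid priming genes 5 were higher and 0 lower at 6 days than in uninduced (median 0.17, 0.12 in other cells). Whether any list differed between S phase and other cells was not tested.

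Neutrophil genes were among the genes with the widest differences between groups in S phase cells, and most of their UMIs lay in single cells. Among the uninduced S phase cells, the highest cell for each gene held 1798 of 2227 S100a8 UMIs, 1078 of 1342 S100a9 UMIs and 566 of 620 Camp UMIs. Whether these were the same cell was not examined. Elane, neutrophil elastase, had 1 UMI in control, 144 in uninduced with 141 in 1 cell, 59 at 3 days in 1 cell and 205 at 6 days in 4 cells. These values describe those cells.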

How the data were processed

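The deposited matrices hold whole UMI counts, and a further deposited table for each library holds log2 values of counts scaled by a factor of each cell, which the authors computed; the log2 tables served here only to define the kept cells. The submitters' processing notes name mm10 and Seurat; the aligner and counter are not given in the sources used here. Counts were summed by class and library and scaled to CPM (a total of 1000000) with a pseudocount of 1. The S phase cells, the 45 gene lists, the comparisons and the alternatives were chosen with earlier results of these data known. Intervals at 95% are exact Poisson, conditional exact for folds, and Clopper-Pearson for shares. Named genes were the 12 highest and 12 lowest non-cycle genes among those counted, up to 4 of each list (6 of cycle lists) by absolute ratio, the 6 highest and lowest of each group comparison, and Rbpj, Hes1 and Hspa1a, leaving out haemoglobin, sex-linked and receptor segment genes. Other genes named, such as Flt3, Cd34, Dntt, Dtl, Zfp367, Fzr1, Gas2l3, Top2a, Mki67, Ccna2, Hist1h2ap, Hist1h1e and those with a motif, were chosen for their role or after their values were seen. No doublet caller was run and doublets were kept. Genes were counted by identifier, and 121 share a symbol. Python 3.11.15, numpy 2.4.6, pandas 2.3.3, scipy 1.17.1, R 4.3.3, edgeR 4.0.16 (TMM factors) and DESeq2 1.42.0 (size factors) were used. The counting of higher and lower genes was run on simulated counts with Poisson error only. Those counts had no variation between cells and no choice of cells by their own UMIs, so the run did not assess either. Some genes of these lists are not reported here.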

Additional observations from a re-analysis of the deposited data

Results flagged for a closer look

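In 4 results the libraries or classes went opposite ways, and the differences were not tested. Cd28 went from -1.46 to 0.59 (log2 ratio of S phase to other cells) over the libraries, on 55 UMIs. Elane went from -0.82 in control to 4.63 in uninduced, where 1 cell held 141 of 144 UMIs. Wfdc21 at 3 days against uninduced was at -1.82 in S phase cells and 0.61 in other cells. Ptcra at 6 days against control was at -4.30 in S phase cells, on 30 UMIs in 3 control cells and 0 UMIs at 6 days, and at 1.04 in other cells.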

How the results depend on the processing

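No paired analysis was possible because every group is a single library. With few S phase cells, at 3 days 10 CPM is 5.56 UMIs, so single genes near that level were not resolved. Shares in control, uninduced, 3 days and 6 days were 1.52%, 0.903%, 1.16% and 0.892% at an S sum of 15 or more, 0.470%, 0.239%, 0.827% and 0.570% at 4700 UMIs, and 10.1%, 10.8%, 9.83% and 8.89% with the lowered rule, which was chosen after seeing the data. Genes outside the rule that were higher numbered 375 against other cells with a G2/M sum under 3, 54 in cells of like size, 93 at 50 CPM and 30 at 2-fold. Lower ones numbered 218 with no minimum, 34 at 50 CPM and 26 at 2-fold. Non-cycle genes higher and lower numbered 171 and 140 against other cells with a G2/M sum under 3, 50 and 50 with a pseudocount of 5, 38 and 26 at 50 CPM, and 13 and 15 at 2-fold. Of them 40 were higher in cells of like size and 189 lower with no minimum. Leaving out 1 library gave 182 to 218 higher and 145 to 161 lower, and 95 to 130 and 120 to 134 for non-cycle genes, since 3 libraries are easier to satisfy than 4.

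Genes past 1.5-fold between groups (uninduced against control, 3 days and 6 days against uninduced, 6 days against control; 993, 1651, 1430 and 1275) numbered 2627, 3661, 3204 and 2805 at an S sum of 15, 2023, 2859, 2670 and 2405 at 4700 UMIs, 4138, 5101, 4544 and 4467 with no minimum, and 85, 190, 144 and 113 at 50 CPM. With a pseudocount of 5 they were 627 in the first and 824 in the last.

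Mitotic genes turned positive against other cells with a G2/M sum under 3, at 0.83 for Aurka, 0.87 for Ccnb1, 0.80 for Ccnb2, 0.26 for Cdc20, 1.35 for Cdc25c, 0.82 for Cenpe, 1.10 for Cenpf, 1.38 for Hmmr, 2.28 for Nusap1, 1.67 for Plk1, 0.33 for Tuba1c and 1.45 for Ube2c, since that setting leaves out the cells richest in them. Without cells of other types, log2 ratios in uninduced against control turned to -0.63 for Camp, -0.038 for S100a9 and -0.70 for Wfdc21. At 3 days against uninduced they turned to 1.31 for Camp, -4.34 for Ly6c2, 1.04 for S100a8, 1.49 for S100a9 and 1.53 for Wfdc21. At 6 days against uninduced they turned to 2.42 for Camp, 1.00 for Lcn2, 0.51 for Ngp, 0.57 for S100a8, 1.03 for S100a9 and 1.88 for Wfdc21, and against control Ly6c2 turned to -1.81. Lcn2 at 3 days turned to 6.69 at an S sum of 15, and without cells over 2 times the median UMIs Elane at 6 days against uninduced turned to -5.20 and Ly6c2 against control to -1.89. Ratios of other named genes and lists moved by less than a set limit in 4147 cases and by more in 647, and the cause was not tested. For S phase against other cells the limit was the SD of the 4 libraries. For genes compared between groups, which have 1 library each, it was 1.5-fold.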
